A study of Homo sapiens with 4 samples.

Results

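The genes described here are those whose symbol starts with VPS followed by a digit, the vacuolar protein sorting names that human genes took over from yeast. Of 16376 genes in the deposited table, 33 carried such a symbol. They were chosen by symbol from the genes that the table lists, and the set was proposed with the group means of Control and H2O2 in view, so counts of calls among them are descriptions and support nothing. RNA-seq of poly(A)-selected RNA was made from HCT116, a human colon cancer cell line. The labels name 2 samples with the agent Control (untreated cells) and 2 with the agent H2O2 (hydrogen peroxide), and give no dose, exposure time, genotype change or vehicle. All 4 samples came from this line, so the values describe 1 cell line. The labels do not tell whether replicate samples were grown as separate cultures. The p-values here therefore rest on the spread among these 4 samples, which may be technical.

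The deposited table holds group means of normalized counts, which are read counts divided by a size factor for the depth of each library. Whole read counts of the libraries behind the means were recovered from it, with 6858809 to 7365032 reads per library over the listed genes. The recovered libraries carry no replicate number, so within a group they are told apart below by depth, as deeper and shallower. The header writes A and B for the groups. Because the table's name puts control first, A was read as Control, and every direction below depends on that reading. All 8 fixed colon epithelial markers were listed, with a summed normalized count of 9915 and 11686 in the controls and 13089 and 12455 with H2O2. Of 11 markers of leukocytes, fibroblasts and endothelium, 2 were listed. CD14 had 4.79 and 3.08 in the controls and 18.3 and 10.4 with H2O2, and COL1A1 had 748 and 759 in the controls and 559 and 547 with H2O2. The authors' deposited table called CD14 and the epithelial marker CLDN4 higher with H2O2 and COL1A1 lower. Their part in the results was not tested.

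Many VPS proteins act as subunits of complexes that move membrane and cargo between the Golgi, endosomes and lysosomes. Retromer returns cargo from endosomes to the Golgi and the cell surface. CORVET and HOPS tether early and late endosomal membranes before fusion, ESCRT complexes sort ubiquitinated proteins into vesicles that bud into the endosome, and GARP tethers endosome-derived vesicles at the trans-Golgi network. The VPS13 proteins are long rod-like proteins that carry lipids between organelles at membrane contact sites. Further subunits of these machines have other symbols, such as SNF8 and the CHMP genes of ESCRT, and are given separately.

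The table held 4 retromer genes, 8 of HOPS, CORVET and the related CHEVI complex, 9 of ESCRT with the VPS4 ATPases, 4 of GARP, all 4 VPS13 genes, 3 other coding genes and 1 noncoding gene. All 33 had a mean normalized count of at least 92.3, so none was near the lowest mean in the table, 5.46. In the authors' deposited table VPS13A, VPS13B, VPS13C, VPS13D and VPS18 were lower with H2O2 at an adjusted p under 0.05, none was higher and 28 did not pass. Over all listed genes the authors' test called 7.19%, of which 4.62% of genes were lower and 2.58% higher. In the authors' deposited table the 33 genes had a median log2 fold change of -0.079, beside 0.00029 over all listed genes. A fold change here is the mean of the H2O2 libraries over the mean of the controls.

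RefSeq promoter windows (GRCh38.p14, from 250 bases before to 50 after the start) matched 23 of the 33 genes by symbol, in 28 windows. The bases before the start are printed for 3 of the VPS13 genes, because that family held most of the calls, and for VPS11, a core subunit of HOPS and CORVET whose window held more of the searched motifs. Each reads 5′ to 3′ on the gene's own strand. Capitals mark matches to the E-box core CACGTG, bound by TFEB and many related factors, to its extension TCACGTGA, the core of the CLEAR element of lysosomal genes, or to the antioxidant response element core TGACNNNGC, bound by NRF2.
VPS13A, chr9:77177284-77177533, plus strand: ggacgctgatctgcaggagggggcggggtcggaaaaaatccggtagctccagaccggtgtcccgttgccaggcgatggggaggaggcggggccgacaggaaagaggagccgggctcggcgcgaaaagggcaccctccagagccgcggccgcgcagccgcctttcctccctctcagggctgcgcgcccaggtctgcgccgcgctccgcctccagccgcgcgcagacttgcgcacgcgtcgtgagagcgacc
VPS13C, chr15:62060448-62060697, minus strand: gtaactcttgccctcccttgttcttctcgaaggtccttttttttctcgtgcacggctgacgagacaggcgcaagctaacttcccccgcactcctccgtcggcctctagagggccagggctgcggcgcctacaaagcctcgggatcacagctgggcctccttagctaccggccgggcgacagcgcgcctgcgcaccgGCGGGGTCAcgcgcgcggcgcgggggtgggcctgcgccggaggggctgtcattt
VPS13D, chr1:12229780-12230029, plus strand: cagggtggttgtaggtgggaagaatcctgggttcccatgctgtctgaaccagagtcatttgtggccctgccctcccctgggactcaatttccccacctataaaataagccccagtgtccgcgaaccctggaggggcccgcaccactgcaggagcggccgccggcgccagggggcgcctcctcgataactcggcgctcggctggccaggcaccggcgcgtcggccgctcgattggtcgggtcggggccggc
VPS11, chr11:119067568-119067817, plus strand: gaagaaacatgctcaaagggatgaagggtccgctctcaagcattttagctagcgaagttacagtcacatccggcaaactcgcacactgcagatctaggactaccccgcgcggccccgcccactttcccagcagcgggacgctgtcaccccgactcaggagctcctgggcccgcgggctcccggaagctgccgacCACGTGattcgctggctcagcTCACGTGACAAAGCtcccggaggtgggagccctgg
Of these bases 72.0% were G or C in VPS13A, 67.2% in VPS13C, 67.2% in VPS13D and 62.4% in VPS11. Motifs were searched on both strands. The VPS13A and VPS13D windows held none of the 5 motifs searched, and VPS13C held 1 antioxidant core, 54 bases before the start (-54). In VPS11 an E-box at -34 lay within a CLEAR core at -35 and overlapped an antioxidant core at -30, and another E-box stood at -56.

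Across the family the E-box core was in 6 of 28 windows, from 5 genes (VPS8, VPS11, VPS16, VPS36 and VPS37B), against 7.26% of all 35116 promoter windows. The antioxidant core was in 6 of 28 windows, from 5 genes (VPS11, VPS13C, VPS29, VPS35 and VPS9D1-AS1), against 13.3% of all windows. The VPS11 windows overlap and share the CLEAR core, the E-box within it and the antioxidant core. The E-box at -56 lies in the printed window only. The CLEAR core, which contains the E-box core, was in VPS11 alone among the VPS genes and in 0.980% of all windows. The AP-1 site TGANTCA was found for VPS8 (7.71% of all windows) and the cyclic AMP response element TGACGTCA for VPS37B (1.85%). The median window was 66.5% G or C for the VPS genes and 58.7% for all genes. The motifs and the printed windows were chosen after the values had been seen. The CLEAR core in particular was taken up after the VPS11 window had been read, in place of the longer CLEAR element, which an earlier search had found in no VPS window. That match is therefore no evidence about VPS11. Matches describe letters in these windows and are not measured binding sites.

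**Figure D1:**
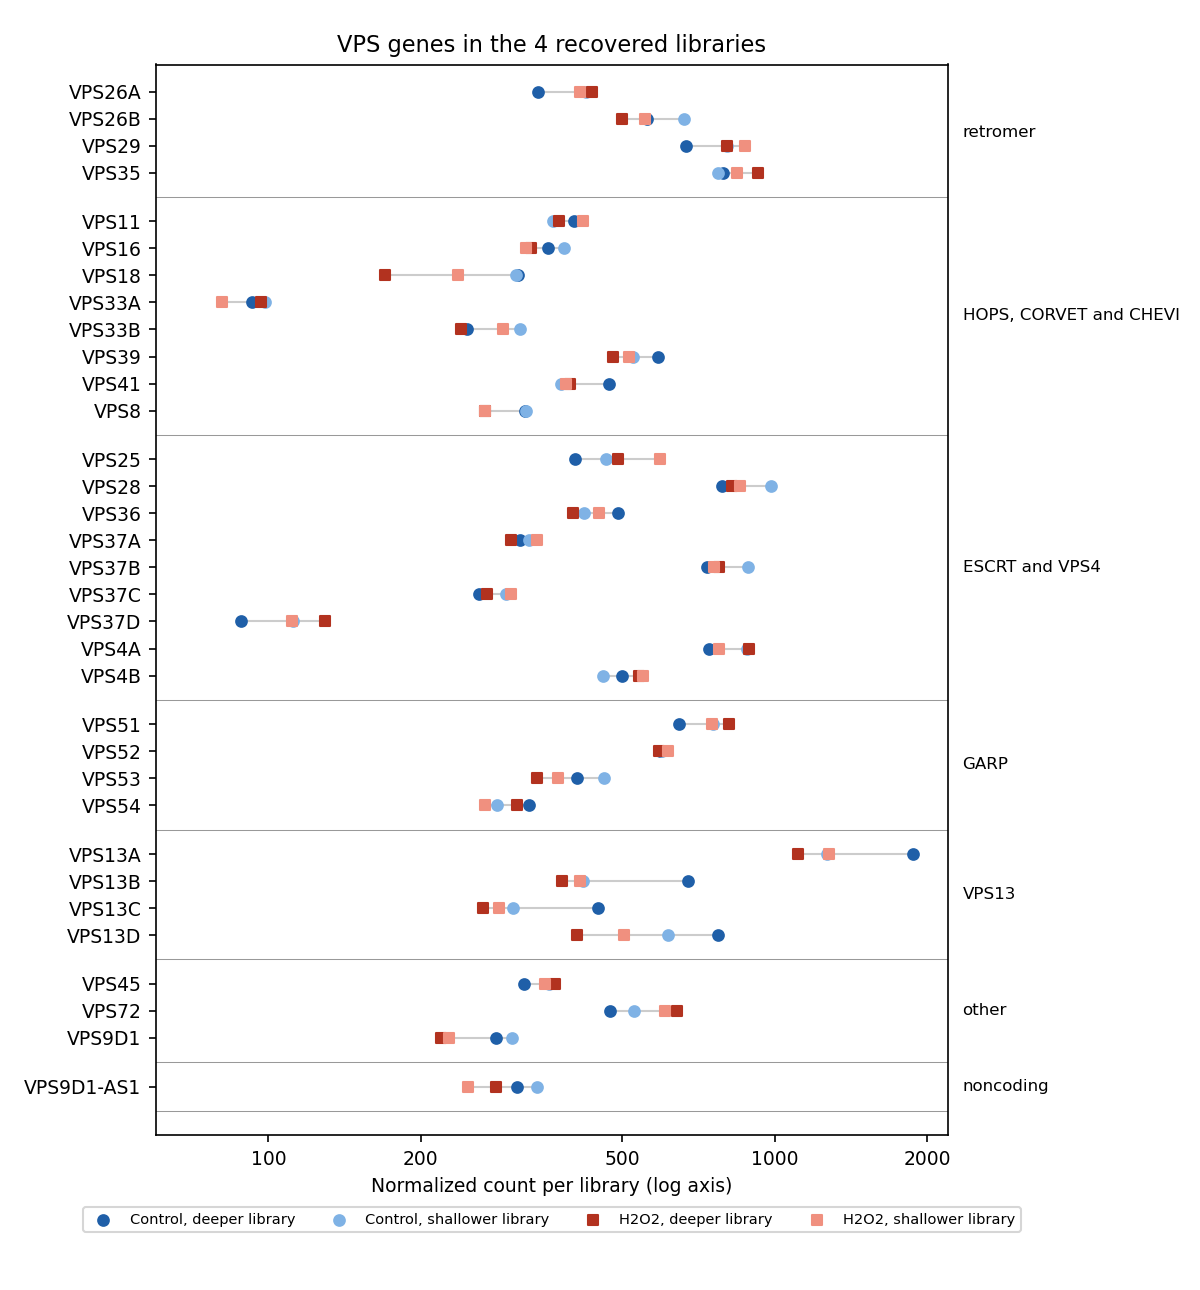
Normalized count (log axis) of each of the 33 VPS genes in the 2 Control libraries (blue circles) and the 2 H2O2 libraries (red squares), grouped by complex, with a grey line from the lowest to the highest library. The deeper Control library stands above the other 3 for VPS13A, VPS13B, VPS13C and VPS13D. Both H2O2 libraries stand below both controls for 11 genes, among them VPS13B, VPS13C, VPS13D and VPS18.

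In the authors' deposited table all 4 VPS13 genes were lower with H2O2, with a median log2 fold change of -0.45. VPS13D, which acts in mitochondrial size control and clearance, had normalized counts of 774 and 615 in the deeper and shallower control and 406 and 503 with H2O2. Both H2O2 libraries lay below both controls, which differed by 0.33 on the log2 scale. Its H2O2 mean was 0.655 of the control mean (adjusted p = 4.03e-04, authors' deposited table), and limma gave a log2 fold change of -0.61 ± 0.14 (SE, 2 libraries per group, adjusted p = 0.0236).

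VPS13A, which encodes chorein, the protein lost in chorea-acanthocytosis, had 1880 and 1271 in the deeper and shallower control and 1110 and 1281 with H2O2. The groups overlapped, because the shallower control lay between the H2O2 libraries. VPS13B, the gene mutated in Cohen syndrome, had 673 and 419 in the controls and 380 and 413 with H2O2. VPS13C, a protein of endosome and lysosome contacts with the endoplasmic reticulum, had 448 and 304 in the controls and 265 and 286 with H2O2. For VPS13B and VPS13C the H2O2 libraries were below both controls, by a small margin against the shallower one and by a wide margin against the deeper. The ratios of means were 0.759 for VPS13A, 0.727 for VPS13B and 0.734 for VPS13C in the authors' deposited table, with adjusted p of 0.0255, 0.0177 and 0.0384. Set against the shallower control alone, the H2O2 means were 0.941, 0.947 and 0.908 of it, and against the deeper control alone 0.636, 0.589 and 0.616. limma did not call these 3 genes with all 4 libraries (adjusted p = 0.183, 0.186 and 0.164).

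Summed over the 4 VPS13 genes, the normalized count was 3774 in the deeper and 2608 in the shallower control, and 2162 and 2484 with H2O2. The deeper control alone thus differed from the shallower control by more than the shallower control differed from either H2O2 library. The gap between the controls had a median of 0.56 on the log2 scale over the VPS13 genes, beside -0.13 over the other 29 VPS genes and -0.0094 over all listed genes.

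**Figure D2:**
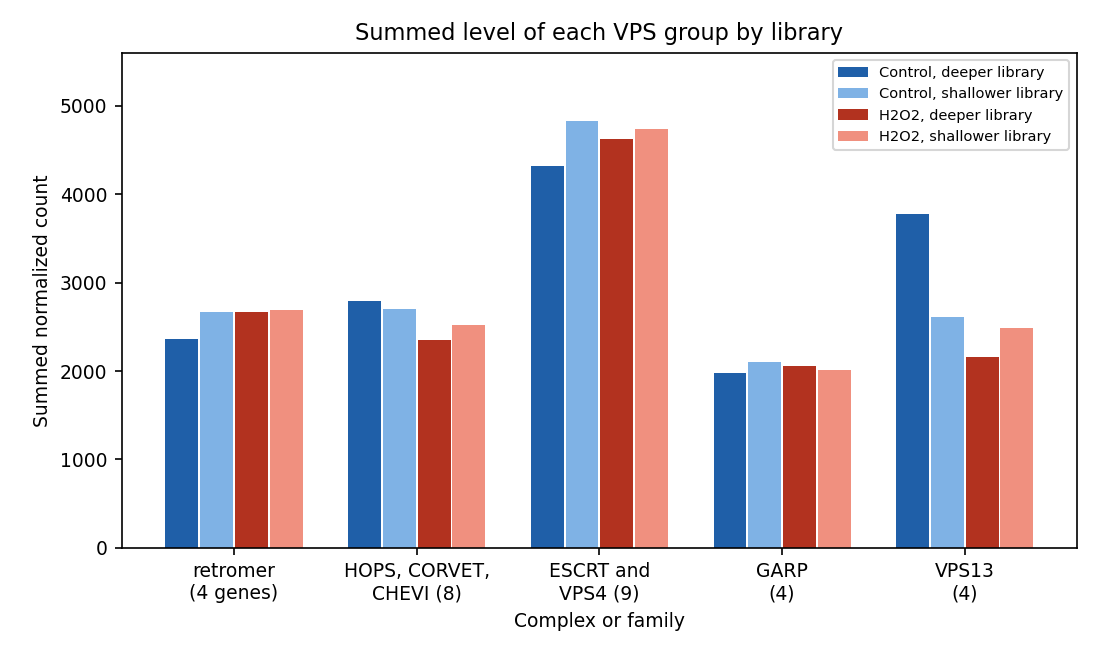
Summed normalized count of the VPS genes of each complex or family in each of the 4 libraries; bars start at 0 and are single libraries without error. The VPS13 sum is highest in the deeper Control library (3774), and the HOPS, CORVET and CHEVI sum is lower in both H2O2 libraries than in both controls.

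Removing libraries moved the VPS13 genes unequally. With the deeper control left out, limma log2 fold changes were -0.091 for VPS13A, -0.079 for VPS13B, -0.14 for VPS13C and -0.44 for VPS13D, and VPS13D alone of the 4 passed (adjusted p = 0.00409). That fit also called VPS18, VPS26B, VPS53 and VPS9D1, 5 of the 33 in all, beside 4.81% of all genes lower. With the shallower control left out all 4 passed, at -0.66, -0.76, -0.70 and -0.77, and with VPS18 made 5 of the 33, beside 11.6% of all genes called lower. With the deeper H2O2 library left out none of the 4 passed (adjusted p from 0.319 to 0.710; 1.1% of all genes lower), and with the shallower one left out VPS13D passed (adjusted p = 0.00807; 1.84% of all genes lower). These fits leave 1 group with a lone library, which is assumed to vary like the other group.

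**Figure D3:**
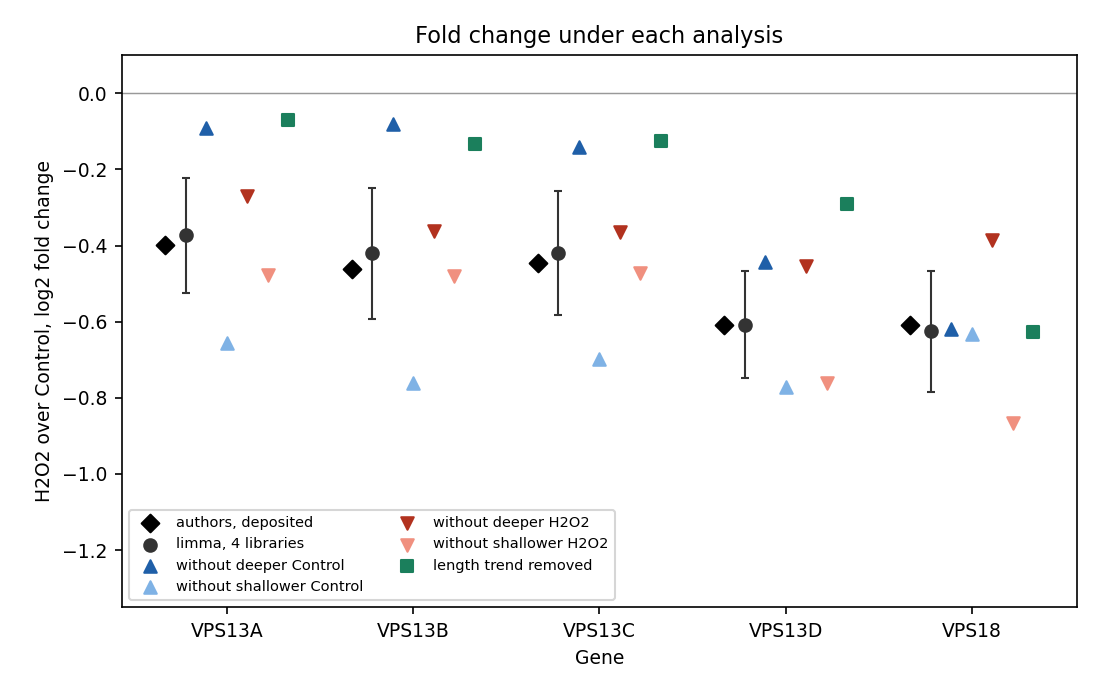
Log2 fold change of the 5 genes called lower in the authors' deposited table (vertical axis) under 7 analyses; the bar on the limma point is its SE with 2 libraries per group. VPS13A, VPS13B and VPS13C lie near 0 without the deeper Control library and after removal of the length trend, and VPS18 stays between -0.86 and -0.39.

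VPS13 transcripts are long, and length moved with the fold change in this table. The longest annotated transcripts of VPS13A, VPS13B, VPS13C and VPS13D have 15320, 14094, 14579 and 16357 bases, above those of at least 98.9% of the listed genes with a known length. Among 489 genes with a mean of at least 50 and a transcript over 10000 bases, the median log2 fold change was -0.31, 28.6% were called lower and 0 higher in the authors' deposited table. Among 1772 such genes of up to 2000 bases the median was 0.16, with 2.03% lower and 3.72% higher. The controls differed along the same axis. The median of the deeper over the shallower control was 0.32 on the log2 scale for transcripts over 10000 bases and -0.17 for those up to 2000 bases. The H2O2 libraries differed less, with medians of -0.075 and 0.022.

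Across the 33 VPS genes, Spearman's rho between transcript length and log2 fold change was -0.52, and it was -0.46 across 11322 genes of mean at least 50 with a known length. It was -0.32 over the 29 VPS genes outside the VPS13 family. These genes share the same 4 libraries and are not independent. After each library's trend with length was removed, limma log2 fold changes were -0.069 for VPS13A, -0.13 for VPS13B, -0.12 for VPS13C and -0.29 ± 0.11 for VPS13D (SE, 2 libraries per group, adjusted p = 0.125), and none of the 4 passed. That fit called 3.21% of 13957 genes lower. This step was first run with the length of all merged exons and then with the longest transcript, a change made after the first result had been seen. With merged exons the values were -0.12, -0.19, -0.17 and -0.35, none of the 4 passed (adjusted p from 0.0749 to 0.590), and 3.04% of genes were called lower. VPS53 is the other VPS gene with a transcript over 10000 bases. Its log2 fold change was -0.28 in the deposited values and -0.0071 after the longest-transcript step (the former from the authors' deposited table).

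**Figure D4:**
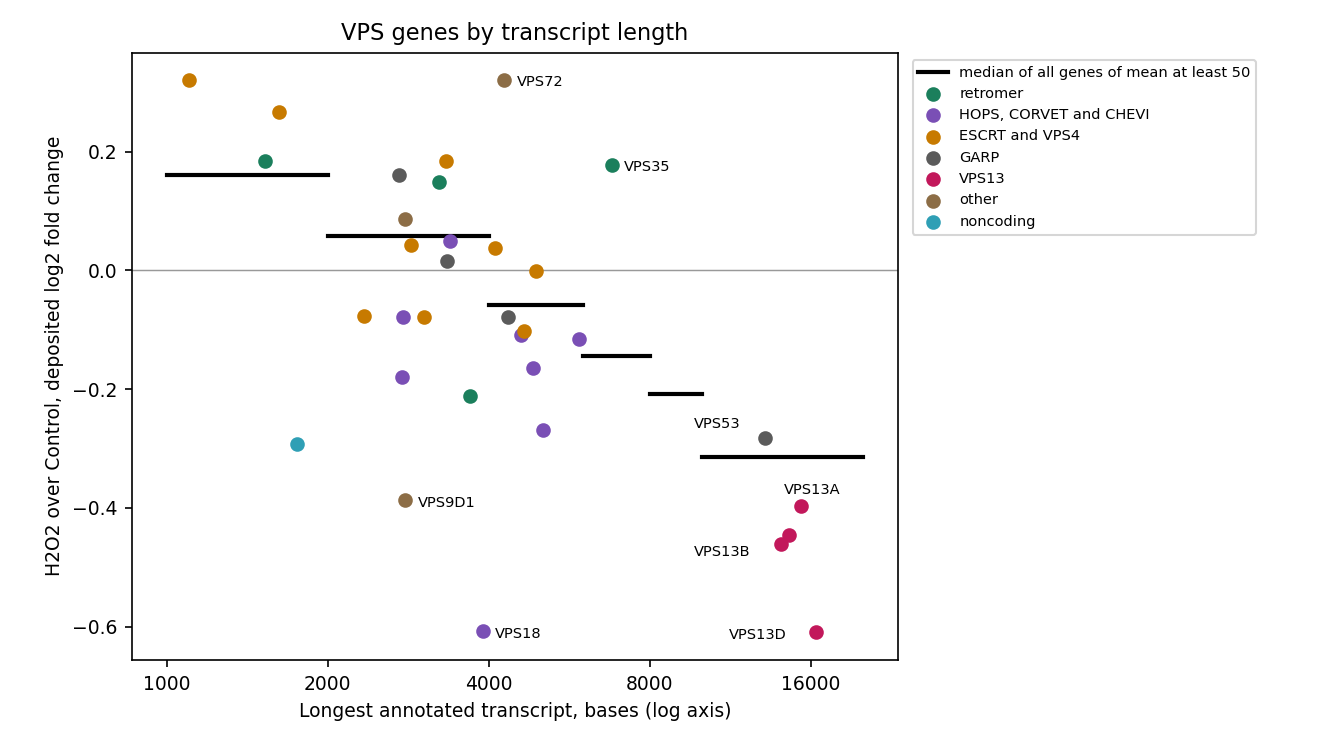
Deposited log2 fold change of each VPS gene (points, coloured by complex) against the length of its longest annotated transcript (log axis), with the median over all genes of mean at least 50 in each length class (black lines). The class medians fall from 0.16 for the shortest to -0.31 for the longest transcripts; VPS18 lies far below its class and VPS35 and VPS72 lie above theirs.

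**Figure D5:**
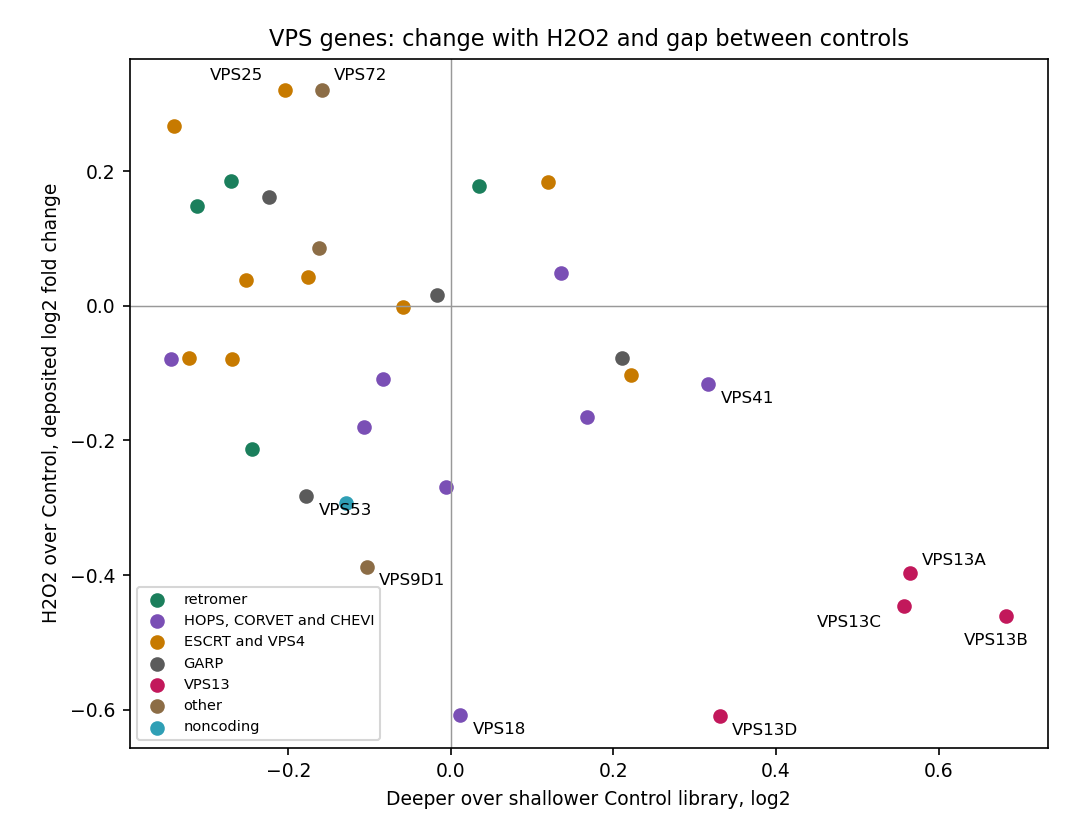
Deposited log2 fold change with H2O2 (vertical axis) against the log2 ratio of the deeper to the shallower Control library (horizontal axis) for the 33 VPS genes; both axes use the same controls, so the points are not independent of each other. The VPS13 genes lie at the lower right, with gaps between the controls of 0.33 to 0.68, and VPS18 lies near a gap of 0.012.

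HOPS and CORVET share a core of VPS11, VPS16, VPS18 and VPS33A. VPS18, a core subunit with a RING domain, had 312 and 309 in the controls and 170 and 237 with H2O2. The controls were nearly equal and both H2O2 libraries lay below them, though the H2O2 libraries were 0.48 apart on the log2 scale. Its ratio of means was 0.656 (adjusted p = 0.00356, authors' deposited table), and limma gave -0.63 ± 0.16 (SE, 2 libraries per group, adjusted p = 0.0396). VPS18 lost its limma call when the deeper H2O2 library was left out (-0.39, adjusted p = 0.549). It kept the call with each of the other 3 left out and after the length trend was removed (-0.63, adjusted p = 0.0182 by longest transcript; -0.67, adjusted p = 0.0105 by merged exons). Its longest transcript has 3895 bases, close to the middle of the listed genes.

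The partners of VPS18 were not called. VPS11, the other core subunit with a RING domain, had 402 and 365 in the controls and 376 and 418 with H2O2, so the groups overlapped. VPS16 had 357 and 384 in the controls and 330 and 323 with H2O2, with H2O2 below. VPS33A, the SM protein of the core, had the lowest mean of the 33 genes, at 93.0 and 98.5 in the controls and 96.5 and 81.1 with H2O2. In the authors' deposited table VPS11, VPS16 and VPS33A stood at 0.049, -0.18 and -0.11 on the log2 scale, each smaller in size than that of VPS18. No test of the difference between VPS18 and its partners was made.

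VPS39 and VPS41 are the subunits that set HOPS apart, and in the authors' deposited table they stood at -0.16 and -0.12 on the log2 scale. VPS8, which is specific to CORVET, had 322 and 323 in the controls and 268 and 267 with H2O2, so the libraries of a group were nearly equal and H2O2 lay below, with a log2 fold change of -0.27 (adjusted p = 0.335, authors' deposited table). VPS33B, the SM protein of CHEVI, overlapped between groups at 247 and 314 against 240 and 291. Of the 8 genes 7 had a negative log2 fold change, and in 4 (VPS8, VPS16, VPS18 and VPS39) both H2O2 libraries lay below both controls. Over all listed genes 8185 of 16376 had a negative value, and 25.6% had both H2O2 libraries below. Their sum was 2792 and 2697 in the controls and 2354 and 2521 with H2O2.

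No retromer gene was called in the authors' deposited table or by limma with all 4 libraries. VPS35, its scaffold subunit, had 792 and 773 in the controls and 926 and 844 with H2O2, with both H2O2 libraries above the controls. The log2 fold change was 0.18 (adjusted p = 0.480, authors' deposited table). VPS29, which binds one end of VPS35, had 669 and 807 in the controls and 804 and 874 with H2O2, and the groups overlapped. VPS26A and VPS26B are alternative subunits of the arrestin fold, and in the authors' deposited table they stood at 0.15 and -0.21 on the log2 scale. VPS26B had 560 and 663 in the controls and 500 and 555 with H2O2, so the H2O2 libraries lay below. The limma value of VPS26B was -0.33 with the deeper control left out and -0.087 with the shallower control left out. For VPS29 these values were 0.055 and 0.32. VPS26A overlapped at 341 and 424 against 435 and 413. Summed over the 4 genes, retromer had 2362 and 2667 in the controls and 2665 and 2686 with H2O2, which is a difference no larger than that between the controls.

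Among the ESCRT genes, VPS28 and the VPS37 genes encode ESCRT-I subunits, VPS25 and VPS36 encode ESCRT-II subunits, and VPS4A and VPS4B encode the ATPases that take ESCRT-III polymers apart. None of the 9 was called in the authors' deposited table or by limma with all 4 libraries. VPS25 had 404 and 465 in the controls and 489 and 595 with H2O2, with both H2O2 libraries above. Its log2 fold change, 0.32, was the highest of the ESCRT genes (adjusted p = 0.166, authors' deposited table). The limma value of VPS25 was 0.42 with the shallower control left out and 0.21 with the deeper control left out. It was 0.19 after the longest-transcript step. VPS4B had 498 and 459 in the controls and 539 and 549 with H2O2, so both H2O2 libraries lay above. The other 7 overlapped between groups, and in the authors' deposited table they ran from -0.10 for VPS36 to 0.27 for VPS37D on the log2 scale. VPS37D had 88.2 and 112 in the controls and 129 and 111 with H2O2. VPS37A, at 314 and 327 against 302 and 339, had the smallest change of all 33 genes (-0.0014, authors' deposited table).

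The GARP genes were not called in the authors' deposited table or by limma with all 4 libraries. VPS51, VPS52 and VPS53 serve both GARP and the endosomal EARP complex, and VPS54 is specific to GARP. VPS53 had 406 and 460 in the controls and 339 and 373 with H2O2, with H2O2 below (adjusted p = 0.265, authors' deposited table). VPS52 was nearly level, at 593 and 600 in the controls and 592 and 616 with H2O2. VPS51 and VPS54 overlapped between groups, and in the authors' deposited table stood at 0.16 and -0.078 on the log2 scale. The limma value of VPS53 was -0.37 with the deeper control left out and -0.19 with the shallower control left out. For VPS51 these values were 0.052 and 0.28.

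The remaining genes are less close to vesicle sorting. VPS72, despite its symbol, encodes a nuclear subunit of the SRCAP and TIP60 chromatin complexes that binds histone H2A.Z. It had 474 and 529 in the controls and 643 and 608 with H2O2, and the highest log2 fold change of the 33 genes, 0.32 (adjusted p = 0.144, authors' deposited table). The limma value of VPS72 was 0.40 with the shallower control left out and 0.24 with the deeper control left out. VPS9D1, which carries a VPS9 domain of the kind that activates RAB5 proteins, had 282 and 303 in the controls and 219 and 228 with H2O2. Its log2 fold change was -0.39 (adjusted p = 0.126, authors' deposited table). VPS9D1 passed in limma after the length trend was removed, by longest transcript (-0.44, adjusted p = 0.0482) and by merged exons (adjusted p = 0.0374). VPS9D1-AS1, a noncoding RNA from the opposite strand, had 310 and 339 in the controls and 282 and 248 with H2O2, also with H2O2 below. Of the limma fits run, it passed only with the merged exon trend removed (-0.43, adjusted p = 0.0489), and the longest-transcript step gave -0.41 (adjusted p = 0.0526). Whether reads were counted by strand is not given in the sources used here, and 15.2% of the exonic bases of VPS9D1 and 29.5% of those of VPS9D1-AS1 overlap the other gene, so without strand, reads in that stretch could not be told apart. VPS45, an SM protein of early endosomes, overlapped between groups (320 and 358 against 369 and 352).

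Across the 33 genes, both H2O2 libraries lay below both controls for 11 genes and above both for 4, and 18 overlapped. Over all listed genes the shares were 25.6% below and 26.3% above. The 5 called genes also had the 5 lowest log2 fold changes of the set. Of the VPS genes that the authors' test did not call, VPS9D1 (adjusted p = 0.126), VPS72 (0.144) and VPS25 (0.166) had the lowest values, well above 0.05. Of those it called, VPS13C (0.0384) stood closest to that threshold. limma on the recovered libraries called VPS13D and VPS18, both lower, and no other VPS gene with all 4 libraries. It called 4.1% of all listed genes, 2.58% lower and 1.52% higher. Before adjustment, 10 of the 33 had a limma p under 0.05, beside 20.2% of all listed genes, and 8 had such a p from the authors, beside 19.6%.

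Several of these values are uncertain because transcripts share sequence. Of the 75-base words in the longest transcript, 74.9% occur in another gene's transcripts for VPS33B, 38.7% for VPS72, 32.6% for VPS33A, 27.8% for VPS4A and 18.1% for VPS16. None of the words of the VPS13 genes or VPS18 did. Exons of other genes on the same strand overlap 27.9% of the exonic bases of VPS37B, though 3.39% of its words are shared. On the opposite strand such overlap covers 22.0% for VPS4A, 14.9% for VPS52, 11.4% for VPS51 and 11.4% for VPS37A. How reads in these stretches were counted is not given in the sources used here.

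Levels per length were compared as normalized counts per 1000 bases of the longest transcript, as control means. VPS29 was highest at 485, followed by VPS25 at 394 and VPS28 at 379, and VPS33A at 20.9 and VPS13C at 25.8 were lowest. Within the VPS13 family VPS13A stood at 103, VPS13D at 42.4, VPS13B at 38.7 and VPS13C at 25.8. VPS13A lay above the others in every library, from 72.5 to 123, while VPS13D (24.8 to 47.3) and VPS13B (27.0 to 47.7) overlapped. Among the ESCRT-I alternatives VPS37B led with 268, against 96.9 for VPS37C, 65.4 for VPS37A and 61.6 for VPS37D. VPS26B at 166 stood above VPS26A at 118, and VPS4A at 198 above VPS4B at 144. These orders depend on the annotated lengths. Per 1000 bases of merged exons VPS28 (235) stood above VPS29 (230), VPS26A (107) above VPS26B (94.3) and VPS37D (61.5) above VPS37A (47.3), while the order of the VPS13 genes was the same.

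Partner genes with other symbols were taken from fixed lists, of which 100 of 106 symbols were in the table. The authors' deposited table called 1 of them lower and another, also 1, higher, and their median log2 fold change was 0.020. Over all listed genes 4.62% were called lower and 2.58% higher. CHMP1B, an ESCRT-III protein, had 483 and 460 in the controls and 734 and 681 with H2O2. It was the 1 gene called among 24 ESCRT partners, with a log2 fold change of 0.59 (adjusted p = 9.31e-04, authors' deposited table). limma called it as well (adjusted p = 0.00936), but not with the deeper H2O2 library left out (0.53, adjusted p = 0.177). The well-expressed ESCRT genes HGS and CHMP1A stood at -0.12 and -0.049 in the authors' deposited table.

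KIAA1109, a giant lipid transfer protein related to VPS13, was the 1 gene called among 6 VPS13-related lipid transfer genes. It had 900 and 548 in the deeper and shallower control and 492 and 508 with H2O2, the same arrangement of libraries as VPS13B. Its log2 fold change was -0.53 (adjusted p = 0.00233, authors' deposited table). limma did not call it (adjusted p = 0.126), its longest transcript has 15896 bases, and its value was -0.18 after the longest-transcript step. UHRF1BP1, the next most abundant of the 6, stood at -0.33, and the median of the 6 was -0.37, both in the authors' deposited table.

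None of 20 retromer and retriever partners, 15 HOPS, CORVET and CHEVI partners, 11 GARP and EARP partners, 8 genes of the VPS34 lipid kinase complexes and 17 sorting receptors and lysosomal cargo genes were called, either in the authors' deposited table or by limma on the full set of libraries. Before adjustment, p from the authors was under 0.05 for 3, 0, 0, 1 and 1 of them in that order, and p from limma for 2, 0, 1, 1 and 1. The shares over all listed genes were 19.6% and 20.2%. SNX3, which recruits retromer, had 1157 and 1420 in the controls and 1626 and 1688 with H2O2 (log2 fold change 0.36, adjusted p = 0.0551, authors' deposited table). RAB7A, the small GTPase that recruits both retromer and HOPS, stood at 0.20, and the syntaxin gene STX10 and the SNARE gene VAMP3 at 0.24 and 0.098 in the authors' deposited table. PIK3R4 and BECN1, subunits of the VPS34 kinase complexes, stood at 0.093 and -0.037. The lysosomal membrane gene LAMP1 and the protease gene CTSB stood at 0.15 and 0.042 in the authors' deposited table.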

How the data were processed

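Poly(A)-selected RNA of 2 Control and 2 H2O2 samples of HCT116 cells was sequenced. Tools listed in the submitters' processing notes are STAR, HTSeq, DESeq, Trim Galore, FastQC and CASAVA 1.8, with build hg19 and no settings. The file is 1 table of 16376 genes that pools the samples of a group. Per the file headers, which use DESeq's column names, the signal in its mean columns is a group's average of normalized counts. The deposited fold column is the ratio of H2O2 to Control means, and the deposited log2 column is its logarithm. Per the file headers, the p-value columns are raw and adjusted.

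Each group mean was solved for 2 whole counts over 2 size factors within 1e-09, and every gene had 1 solution per group. limma 3.58.1 (R 4.3.3) with a mean-variance trend was run on log2(normalized count + 1) of all listed genes, with Benjamini-Hochberg adjustment; such fold changes understate low genes. Both steps were tested on simulated data. The limma simulation gave every gene the same extra spread beyond counting noise and no trend with length. It therefore does not tell how often limma errs on these libraries. Lengths, overlaps and shared words came from GENCODE release 29, which matched 85.2% of listed genes and is on another build than the table. All VPS genes are named. Of each partner list, called members and the 2 highest by mean are named, except 1 gene that is not reported here. The members and lists were chosen with earlier results of these data known. An earlier motif search held 3 further motifs of 10 or more letters, and these were dropped after their matches had been seen.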

Additional observations from a re-analysis of the deposited data

How the results depend on the processing

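The authors' test called 5 VPS genes lower and 0 higher, also when adjusted over genes of mean at least 50. limma called 2 lower (VPS13D and VPS18) and 0 higher with all 4 libraries, with a pseudocount of 0.5 or 5, with library totals or upper quartiles as size factors and in genes of mean at least 50. The 2 length corrections were added after the data were seen. By longest transcript 2 were lower (VPS18 and VPS9D1), and by merged exons 3 (also VPS9D1-AS1). Leaving out a library changed which VPS genes passed in limma, except when it was the shallower H2O2 library. Those fits leave 1 group with a lone library, so in this section their counts are not set beside the others. Among partner genes the authors' test called 1 lower and 1 higher. limma called 0 lower under all of these settings that keep the 4 libraries, and 2 higher after the longest-transcript correction. The share of all genes called higher after that correction is not given here, so those 2 have no background beside them. Leaving out each library gave 0 to 10 lower and 0 to 14 higher. The 10 and the 14 both came from the fit without the shallower control, which called 11.6% of all listed genes lower and 10.6% higher. Out of 100 partner genes, those counts are therefore no evidence of a change particular to the partners. The median log2 fold change of the VPS genes was -0.079 in the authors' deposited table and -0.086 to -0.019 with a library left out. The cause of these differences was not tested. No paired analysis was possible because the deposited columns carry no replicate numbers. With 2 libraries per group, depth and replicate number limit what these tests can call.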
